A study of Homo sapiens with 9 samples.

Results

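Matrix metalloproteinases (MMP), the related ADAM and ADAMTS proteinases and their tissue inhibitors (TIMP) were followed in HK-1 cells, a human nasopharyngeal carcinoma (NPC) line, after exposure to the flavone baicalein. A probe counted as a member where its whole name in the array files was MMP, TIMP, ADAM or ADAMTS followed by a number and at most 1 letter, and ADAMTSL and ADAMDEC names were left out. This gave 93 probes of 66 genes, out of 25378 probes that named any of 19402 genes. There were 3 arrays of control HK-1 cells, 3 of cells given 10 µM baicalein and 3 of cells given 20 µM baicalein, each hybridised with cDNA of a single dye, Cy3. All cells grew as a monolayer, baicalein was given in serum-free medium for 24 h, and full medium replaced it for a further 24 h. By their labels the control arrays came from cells without treatment, but DMSO, the solvent of baicalein, was the control in the study's methods, where only the 10 µM arrays are described. A single cell line in monolayer without stroma was sampled, so enzymes made by neighbouring fibroblasts or leukocytes in a tumour were outside the design.

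MMPs are zinc-dependent endopeptidases that cut collagens, laminins and other proteins of the extracellular matrix, and most are secreted as inactive precursors that other proteinases switch on. ADAMs are membrane-anchored relatives that release the outer parts of growth factors, cytokines and adhesion molecules, although several have lost the catalytic site and act as adhesion proteins. ADAMTS enzymes are secreted and cut proteoglycans, procollagens or von Willebrand factor, and the TIMPs block the active sites of these groups to different degrees. In carcinomas, these proteinases are known for opening basement membrane and stroma during invasion, which is why a compound studied for its effect on migration and invasion raises the question of how their transcripts respond.

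Each spot has a raw intensity, a local background and a net intensity (raw minus background), all in scanner units. Background made up 86.5% to 88.3% of the median raw intensity, so most probes carried little signal of their own. On each array the 95th percentile of net intensity over its 8926 empty spots served as a detection bound, and a probe that exceeded it was called above the empty spots. The bound ranged over 1266-1430 for the control arrays, 1302-1519 for the 10 µM arrays and 1303-1823 for the 20 µM arrays. Between 9.07% and 17.4% of named probes passed it on control arrays, between 8.80% and 8.95% at 10 µM, and between 6.95% and 8.07% at 20 µM. Control replicate 1, with 17.4%, stood apart from the other 8 arrays. Few epithelial markers passed the bound, although the line is labelled a carcinoma: of 13 marker genes on the array, 1 (ITGB4, an integrin of hemidesmosomes) had a probe above the bound on all 9 arrays, and 9, with the desmosomal DSP among them, had none on any array. The basal keratin KRT5 passed on 3 arrays. Of 9 fibroblast markers, PDGFRB had such a probe, FAP had a probe above on 7 arrays, and 5 had none on any array. Of 8 leukocyte markers, 0 had a probe above on all 9 arrays and 7 had none on any, while the T cell gene CD3D had a probe above on 8. The part of other cell types in the values below was not tested.

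Few family members gave a signal. Of the 93 probes, 7 of 6 genes lay above the empty spots on all 9 arrays (7.53%, against 3.15% of all named probes), 4 did so on 6 to 8 arrays, 22 on 1 to 5 arrays and 60 on none (64.5%, against 73.1% of all named probes). The 6 genes were MMP10, MMP14, ADAM23, ADAMTS10, ADAMTS15 and ADAMTS17. Of the 14 probes that passed on exactly 1 array, 8 passed on control replicate 1. For 35 of the 66 genes no probe passed on any array, and the 60 probes without a pass had net intensities of 715 to 1502, each under the bound of its own array. Values of such probes are bounds, and a low transcript level and a poorly hybridising probe cannot be told apart from them.

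**Figure D1:**
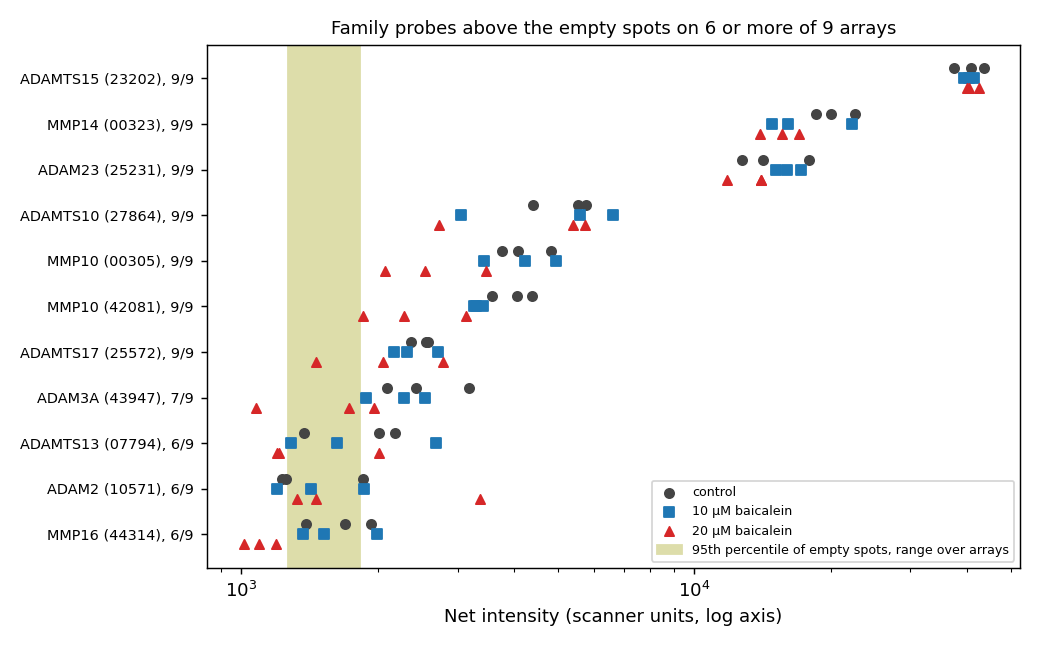
Net intensity of the 11 family probes above the empty spots on 6 or more arrays, 1 point per array, for control (circles), 10 µM (squares) and 20 µM baicalein (triangles); the horizontal axis is logarithmic, the band spans the bounds of the 9 arrays (1266 to 1823), and each label gives the end of the probe identifier and the arrays passed. ADAMTS15, MMP14 and ADAM23 lay far above the band in all groups, while the MMP16 points at 20 µM (1010 to 1195) fell below it.

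By role, the secreted collagen-cutting enzymes were at the level of the empty spots. None of the 4 probes of the collagenases MMP1, MMP8 and MMP13, which cleave fibrillar collagen, passed the bound on any array. The gelatinases digest denatured collagen and type IV collagen of basement membrane. MMP9 passed on no array, with 805 to 1502, and MMP2 passed on 1 array, at 1529 on 10 µM replicate 1. Among the matrilysins, the small MMPs without a haemopexin domain, MMP7 passed on none (778 to 1181) and MMP26 on 1. Of 8 probes of 6 other MMP genes, 2 passed on 1 to 5 arrays and 6 on none.

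The stromelysins, broad-specificity enzymes that also activate other MMP precursors, included the 1 gene of the family with several probes all above the empty spots on every array. MMP10 (stromelysin-2; chromosome 11, 102770502 to 102780628 in GRCh38.p14) is that gene, with 2 probes. Its probe PH_hs_0000305 had net intensities of 4824, 3754 and 4078 on control arrays, 4940, 3438 and 4227 at 10 µM, and 3470, 2070 and 2543 at 20 µM. All 20 µM arrays lay below all control arrays, whereas the 10 µM arrays overlapped both other groups. Its probe PH_hs_0042081 read 4375, 3583 and 4048 on control arrays, 3288, 3255 and 3415 at 10 µM, and 2284, 1859 and 3130 at 20 µM. For this probe, every 10 µM array lay below every control array and every 20 µM array below every 10 µM array, before any normalization. MMP3 (stromelysin-1), a close relative of MMP10, passed only on control replicate 1 (1768), and MMP11 (stromelysin-3) on none. Probe sequences were not analysed here, so a share of MMP3 signal in the MMP10 probes was not tested.

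The bases just upstream of MMP10 are shown beside those of MMP7, a gene of the same MMP cluster on chromosome 11 whose probe stayed at the empty spots, and those of MMP14, because they let the start regions of a detected and an undetected member of one cluster be read together. The sequences are RefSeq promoter entries of GRCh38.p14, 120 bases that end at the base before the gene's start, and capitals mark matches to short motifs. The first motif is TGANTCA, where N is any base, a loose form of the letters bound by AP-1 transcription factors. The other motif, a TATA box, is TATAAA. Positions count back from -1, the last base printed.
MMP10, chr11:102780629-102780748, minus strand: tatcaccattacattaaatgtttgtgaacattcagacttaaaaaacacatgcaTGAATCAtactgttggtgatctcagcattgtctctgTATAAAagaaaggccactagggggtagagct
MMP7, chr11:102530748-102530867, minus strand: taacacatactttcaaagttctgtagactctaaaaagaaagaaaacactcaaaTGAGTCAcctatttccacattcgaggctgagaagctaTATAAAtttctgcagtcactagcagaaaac
MMP14, chr14:22836465-22836584, plus strand: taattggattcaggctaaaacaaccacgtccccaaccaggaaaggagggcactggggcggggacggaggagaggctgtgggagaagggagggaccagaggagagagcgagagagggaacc
The TGANTCA match began at -67 in both MMP10 and MMP7, but its middle base was A in MMP10 (TGAATCA) and G in MMP7 (TGAGTCA). The TATAAA match began at -31 in MMP10 and -30 in MMP7. The probes of these genes differed in whether they passed the empty spots. The stretch of MMP14 held neither set of letters. Over 250 upstream bases and both strands, TGANTCA was present in 6.57% of 35116 RefSeq promoters and in 4 of 38 entries of family genes (ADAMTS12, MMP7, MMP10 and MMP20), and TATAAA in 10.7% of promoters and in 7 of the 38. These are matches of letters and no measure of binding.

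Of the membrane-type MMPs, which act at the cell surface, MMP14 and MMP16 gave a signal. MMP14 (MT1-MMP, the activator of the MMP2 precursor; chromosome 14, 22836585 to 22847758 in GRCh38.p14) read 20043, 22639 and 18599 on control arrays, 16076, 14860 and 22258 at 10 µM, and 17009, 13962 and 15648 at 20 µM. All 20 µM arrays lay below all control arrays as deposited, and 10 µM replicate 3 lay among the controls. After normalization the groups overlapped in every comparison, and the difference of 20 µM minus control was -0.062 on log2 raw intensity (standard error 0.14) and -0.088 on log2 net intensity (standard error 0.15). The raw value was -0.031 to -0.11 with an array left out, -0.031 without 20 µM replicate 2 and -0.11 without 20 µM replicate 1 or control replicate 1.

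MMP16 (MT3-MMP, on chromosome 8) has 3 probes, of which 1 passed the bound. PH_hs_0044314 read 1931, 1695 and 1386 on control arrays, 1989, 1369 and 1522 at 10 µM, and 1010, 1195 and 1090 at 20 µM. It passed on all 6 control and 10 µM arrays and on none of the 3 at 20 µM, where its value is a bound. Set against the lowest signal of probes above the empty spots, the control arrays were at least 1.08-fold brighter than the 20 µM arrays and the 10 µM arrays at least 1.09-fold. The other probes, PH_hs_0035515 and PH_hs_0049074, passed on no array, with mean differences of 20 µM minus control of -0.13 and 0.015 on log2 net intensity (standard errors 0.13 and 0.16). Of the remaining membrane-type genes, MMP15 and MMP17 passed on 1 array each, and MMP24 and MMP25 on none.

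**Figure D2:**
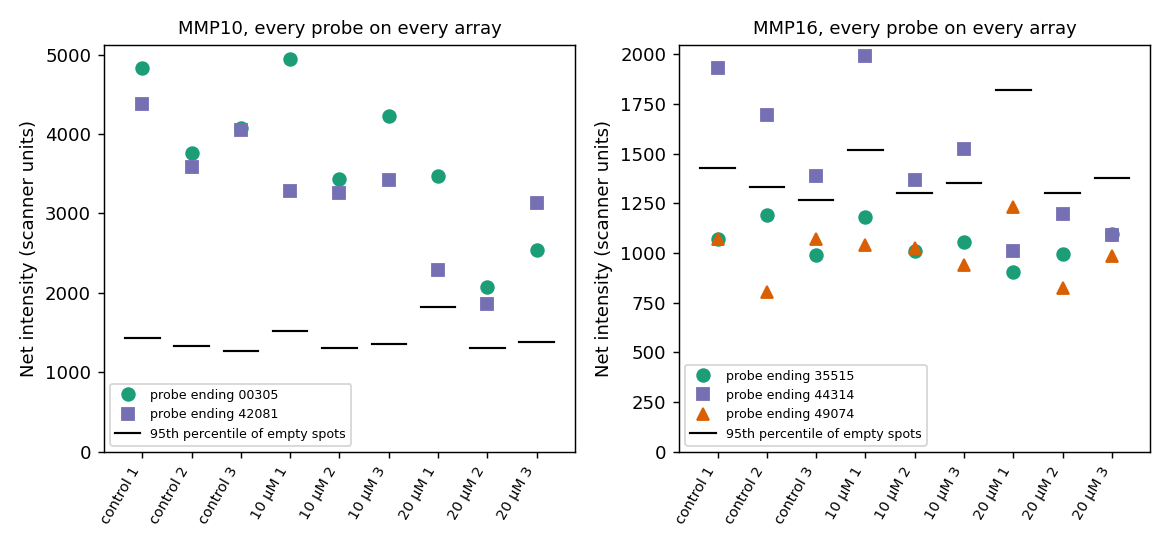
Net intensity (scanner units, axes from 0) of each probe of MMP10 (left) and MMP16 (right) on the 9 arrays, with short lines at each array's 95th percentile of the empty spots. Both MMP10 probes lay above the line on all 9 arrays and 1 MMP16 probe did so on the 6 control and 10 µM arrays. For the first MMP10 probe the raw difference of 20 µM minus control was 0.035 under cyclic loess, which was not run on net intensity.

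Among ADAMs with an active site, 18 probes of 12 genes, 0 passed on 6 or more arrays. ADAM10 (the main sheddase of Notch and cadherins) passed on none and read 941 to 1116, and ADAM15 passed on none. ADAM17, which releases TNF and ligands of the EGF receptor, passed only on control replicate 1, with 1837, against 905 to 1329 on the other 8 arrays. ADAM9 passed with 1 of 3 probes, on 5 arrays. ADAM8 passed only on control replicate 1, with 2525, against 1024 to 1297 elsewhere.

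Of the 8 ADAM genes without an active site, ADAM23 and ADAM2 gave a signal. ADAM23 (an adhesion protein best known from neurons; chromosome 2, 206443532 to 206621127) read 17896, 12707 and 14205 on control arrays, 15995, 15134 and 17167 at 10 µM, and 14014, 11802 and 14054 at 20 µM. The highest value of all was a control array, and each 20 µM array lay below each 10 µM array as deposited. ADAM2 (fertilin beta of sperm) read 1858, 1252 and 1228 on control arrays, 1864, 1427 and 1198 at 10 µM, and 3361, 1328 and 1458 at 20 µM, so that 20 µM replicate 1 alone stood out. ADAM3A, a name given to a pseudogene in humans, passed on 7 arrays, with 3181, 2434 and 2099 on control arrays, 2286, 2541 and 1884 at 10 µM, and 1723, 1078 and 1962 at 20 µM. Its 20 µM arrays all lay below its control arrays as deposited, and they overlapped after normalization.

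The ADAMTS genes held 3 of the 7 probes above the bound throughout. ADAMTS15, which cuts aggrecan and versican (chromosome 11, 130448645 to 130476645), read 37412, 43488 and 40809 on control arrays, 39386, 41540 and 40354 at 10 µM, and 42473, 40477 and 39999 at 20 µM. These values overlapped in every pair of groups, with means of 40570 ± 3045 for control, 40427 ± 1078 for 10 µM and 40983 ± 1312 for 20 µM (SD, n = 3 each), and the probe was below the brightest raw value of each array. ADAMTS10, linked to fibrillin microfibrils (chromosome 19, 8580240 to 8610715), read 5761, 4408 and 5529 on control arrays, 6603, 3058 and 5595 at 10 µM, and 5388, 2734 and 5727 at 20 µM. Replicate 2 was the lowest in all 3 groups of ADAMTS10, and all replicates 2 shared a code in the array headers, taken here as a batch of unknown kind. ADAMTS17 (chromosome 15, 99971437 to 100341975) read 2576, 2367 and 2561 on control arrays, 2176, 2321 and 2715 at 10 µM, and 2049, 1462 and 2779 at 20 µM with PH_hs_0025572, while its other probe passed on no array.

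ADAMTS13, the von Willebrand factor-cleaving protease, passed with both probes on some arrays. PH_hs_0007794 read 2182, 1371 and 2016 on control arrays, 2684, 1286 and 1624 at 10 µM, and 2007, 1199 and 1209 at 20 µM, passing on 6 of 9 arrays. The other ADAMTS13 probe passed on 5. ADAMTS1 and ADAMTS5, aggrecan-cutting enzymes, passed on no array, and ADAMTS4 on 1. In all, 17 of the 28 ADAMTS probes passed on none.

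The inhibitors were not detectable at this sensitivity. TIMP1, TIMP2 and TIMP3 passed on no array, with net intensities of 924 to 1377, 817 to 1386 and 878 to 1382. TIMP4 passed only on control replicate 1, at 1489. Of 20 well-known family members, 11 had no probe above the empty spots on any array: MMP1, MMP7, MMP9, MMP13, TIMP1, TIMP2, TIMP3, ADAM10, ADAM15, ADAMTS1 and ADAMTS5.

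Several genes were covered by more than 1 probe, which allowed the readings of 1 gene to be compared. There were 23 such genes with 50 probes. Only for MMP10 did all probes pass on all 9 arrays, ADAMTS17 had 1 of 2 that did, and both ADAMTS13 probes passed on some. The 12 genes without a passing probe on any array were ADAM11, ADAM20, ADAMTS2, ADAMTS5, ADAMTS6, ADAMTS18, ADAMTS19, MMP8, MMP20, MMP24, MMP25 and MMP28. In each of the other genes at least 1 probe passed nowhere, while the best probe passed on 6 arrays for MMP16, 5 for ADAM9, 4 for ADAMTS16, 3 for ADAM12 and ADAM28, and 1 for ADAM22, ADAMTS14 and MMP17. Probes of a gene often disagreed in sign. On raw intensity, the signs of the difference were split within 14 of 23 genes for 10 µM minus control, 10 for 20 µM minus control and 11 for 20 µM minus 10 µM. On net intensity they were split within 15, 11 and 10 genes.

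**Figure D3:**
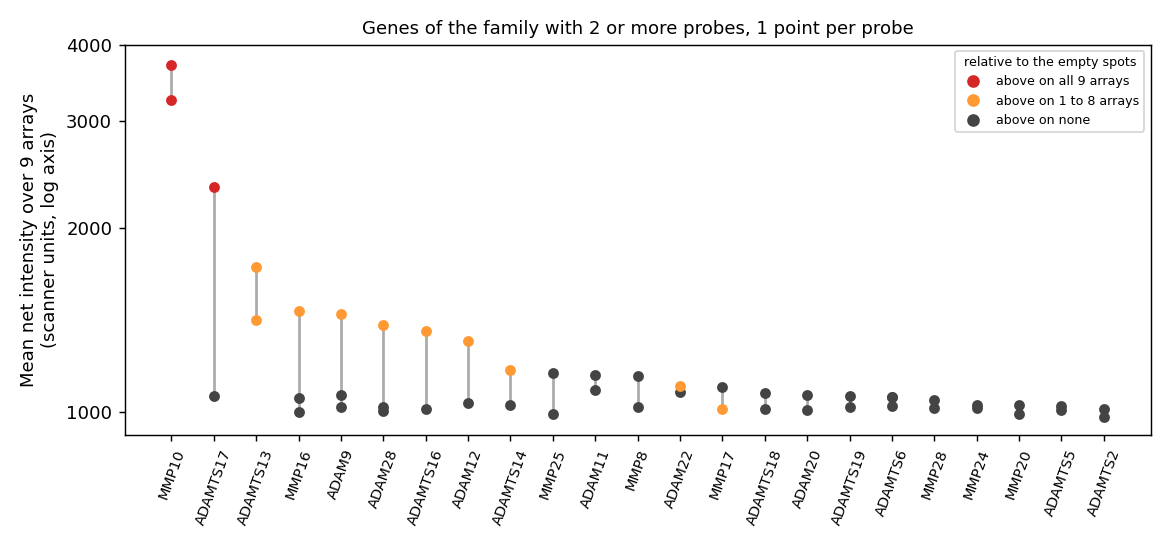
Mean net intensity over 9 arrays (scanner units, log axis) of each probe of the 23 family genes with 2 or more probes, coloured by the number of arrays on which the probe passed the empty spots. Both probes passed throughout for MMP10, and 12 genes had no passing probe; levels of different probes are not on a common scale.

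For the comparison of 10 µM with control, which asks how the lower dose affected these transcripts, no member passed the test. After log2 transformation, median centring and quantile normalization of raw intensity, limma over all 25378 named probes gave 0 of 93 family probes an adjusted p under 0.05 (0.00% of all named probes), and the lowest was 1.00. At an unadjusted p under 0.05 there were 3 family probes (3.23%), against 0.780% of all named probes. Of these, 1 was higher (0.276% of all named probes) and 2 were lower (0.504% of all named probes). On net intensity there were 2 (2.15%), against 3.48% of all named probes, with ADAM23 higher (1.69% of all named probes) and ADAMTS18 by PH_hs_0022901 lower (1.79% of all named probes). The methods' t-test on raw intensity gave 4 (4.30%), against 2.27% of all named probes. The higher member was ADAM23, with a difference in mean log2 raw intensity of 0.19 (standard error 0.085), and of 0.29 on net intensity. Without control replicate 2, the lowest control for ADAM23, the difference was 0.078. The lower ones were ADAMTS13 by PH_hs_0044675 (-0.22, standard error 0.069) and MMP16 by PH_hs_0044314 (-0.17, standard error 0.057). For MMP16 the net intensity gave 0.025 and normexp correction 0.045, so its direction differed between these settings. Next in order came ADAMTS15 (0.12) and the MMP16 probe PH_hs_0049074 (0.080) among higher probes, and ADAM8 (-0.18) among lower ones. Single arrays moved these values. The ADAMTS15 difference was 0.042 without control replicate 2, the MMP16 one 0.13 without 10 µM replicate 2 and 0.048 without 10 µM replicate 3, and the ADAM8 one -0.019 without control replicate 1 and -0.28 without control replicate 3. The median over the family was 0.0073, and 50 probes were higher and 43 lower.

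The 10 µM and control arrays did not overlap for few members. On normalized raw intensity the 10 µM arrays lay wholly above control for 2 family probes (2.04% of all named probes) and wholly below for 4 (3.20% of all named probes). On net intensity there were 4 above (5.05% of all named probes) and 3 below (5.04% of all named probes). ADAM23 was among the 4 above. Both MMP10 probes overlapped with control on both normalized scales, with differences of 0.019 and -0.038 on raw and 0.12 and -0.12 on net intensity. Median centring alone turned the first of these to -0.011.

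At 20 µM against control, the members with the lowest p on raw intensity were ADAMTS15, with a higher raw value, and MMP16, MMP10 and MMP19, with lower ones. Again no member passed the test. In limma, 0 of 93 probes had an adjusted p under 0.05 (0.00% of all named probes), and the lowest was 1.00. At an unadjusted p under 0.05 there were 5 (5.38%), against 2.34% of all named probes. Of these, 1 was higher (0.418% of all named probes) and 4 were lower (1.92% of all named probes). On net intensity there were 8 (8.60%), against 5.24% of all named probes, 1 of them higher (2.09% of all named probes) and 7 lower (3.15% of all named probes), with a lowest adjusted p in limma of 0.865. The methods' t-test on raw intensity gave 0, against 2.06% of all named probes. Without 20 µM replicate 3 the count on raw intensity was 11 (11.8%), but the share of all named probes was then 5.49%. Without 20 µM replicate 1 it was 1 (1.08%, against 1.75% of all named probes), and without control replicate 1 it was 2 (2.15%, against 1.32%).

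MMP10 gave 2 of the 4 lower probes. As deposited, PH_hs_0000305 averaged 2694 ± 712 at 20 µM and 4219 ± 549 in control (SD, n = 3 each), a ratio of 0.639, and PH_hs_0042081 averaged 2425 ± 647 at 20 µM and 4002 ± 398 in control, a ratio of 0.606. After normalization the differences were -0.15 (standard error 0.058) and -0.18 (standard error 0.077) on log2 raw intensity. On log2 net intensity they were -0.33 (standard error 0.11) and -0.45 (standard error 0.20). Under cyclic loess the raw differences were 0.035 and -0.049, and cyclic loess was not run on net intensity. On raw intensity the second probe differed by -0.10 without 20 µM replicate 1 and by -0.28 without 20 µM replicate 3. Within the 3 batches, the net difference was -0.17, -0.37 and -0.45 for the first probe and -0.74, -0.48 and -0.12 for the second. Same-numbered 20 µM and control arrays did not deviate together, with r of -0.331 to -0.230 on raw and -0.0164 to 0.00693 on net intensity. Within-batch differences of these 2 groups are therefore given as values and not as matched pairs. For the first probe the groups did not overlap on either normalized scale, so every pairing of arrays must give a lower 20 µM value. For the second, whose groups overlapped, 20 µM was lower in 3 of 3 batches. On raw intensity the within-batch differences were -0.26, -0.16 and -0.044 for the first probe and -0.35, -0.14 and -0.064 for the second. The shift was shared by other bright probes. Over the 799 named probes above the empty spots on all 9 arrays, the median net difference was -0.17 and 82.7% were lower at 20 µM. Of these probes, 21.7% had a net difference as low as or lower than that of the first MMP10 probe and 10.0% than that of the second, and on raw intensity 50.6% and 38.8% did. The part of this general shift in the MMP10 values was not tested.

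MMP16 by PH_hs_0044314 was lower at 20 µM by -0.16 on log2 raw intensity (standard error 0.057) and by -0.53 on net intensity (standard error 0.14), with within-batch net differences of -0.64, -0.46 and -0.50. This probe was under the bound on all 20 µM arrays, so the size of the net difference is not fixed. ADAMTS16 by PH_hs_0017092 likewise passed on 3 control arrays and 0 at 20 µM, with 1 pass at 10 µM. Set against the lowest signal of probes above the empty spots, its control arrays were not brighter. The share of all named probes with such a pattern was not counted. MMP19, at -0.17 on raw intensity (standard error 0.072), stayed under the bound everywhere and differed by -0.12 on net intensity, and its raw difference was -0.10 without 20 µM replicate 1. ADAMTS15 was higher by 0.24 on raw intensity (standard error 0.071) with arrays that did not overlap, but by 0.11 on net intensity (standard error 0.11), where the arrays overlapped. Within batches its raw differences were 0.18, 0.47 and 0.054. On replicate 2 its raw intensity was 60281 at 20 µM and 50780 in control, whereas its net intensity was 40477 at 20 µM and 43488 in control. Next among the higher members by p came MMP16 by PH_hs_0049074 (0.084) and ADAM7 (0.36), neither of which passed on any array. The ADAM7 difference was 0.0054 without 20 µM replicate 1 and 0.55 without 20 µM replicate 3. On replicate 1 its raw intensity was 17184 at 20 µM and 9249 in control, whereas its net intensity was 1315 at 20 µM and 1387 in control. The within-batch net differences of ADAM7 were -0.0013, 0.14 and -0.035. On net intensity ADAM3A differed by -0.57 (standard error 0.23), with within-batch values of -0.67, -1.13 and 0.090. ADAM2 differed by 0.49 on net intensity (standard error 0.23), with 1.03 in the first batch and 0.22 in both others.

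Without overlap on raw intensity, the 20 µM arrays lay above control for 3 family probes (2.28% of all named probes) and below for 2 (3.27% of all named probes). Those below were the first MMP10 probe and the MMP16 probe. On net intensity there were 2 above (4.66% of all named probes) and 5 below (6.02% of all named probes). Of the 7 probes above the empty spots throughout, ADAMTS15 lay wholly above control on raw intensity (0.375% of the 799 such named probes) and MMP10 by PH_hs_0000305 wholly below (17.6% of the 799). On net intensity 0 lay wholly above (1.13% of the 799) and the same MMP10 probe wholly below (12.3% of the 799). The median of the 7 was -0.088 on net intensity with 4 of them lower. Over all 93 probes the median was 0.0030 on raw and -0.040 on net intensity.

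**Figure D4:**
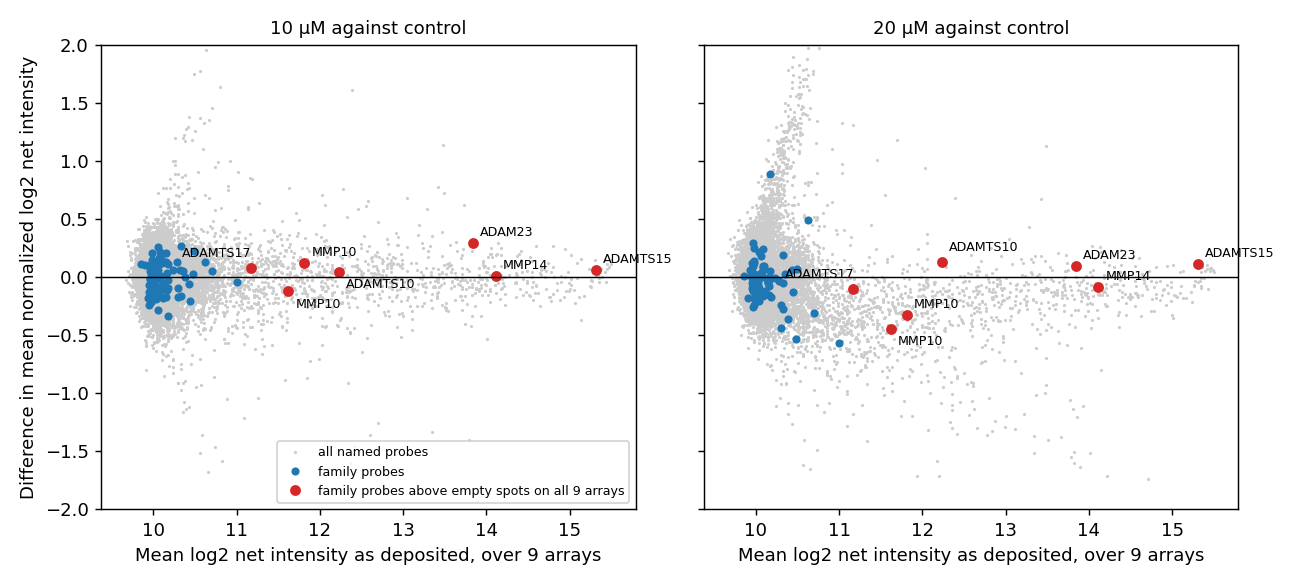
Difference in mean normalized log2 net intensity against the mean log2 net intensity as deposited, for 10 µM minus control (left) and 20 µM minus control (right), 1 point per probe, with family probes in blue and those above the empty spots on all 9 arrays in red; 3 named probes lie outside the drawn range. At 20 µM bright probes lie mostly below 0 (82.7%), the 2 MMP10 probes (-0.33 and -0.45) among them, while at 10 µM they scatter around 0. Cyclic loess was run on raw intensity only, where the first MMP10 probe differed by 0.035 at 20 µM.

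The comparison of 20 µM with 10 µM asks whether the doses differed; it shares the 20 µM arrays with the comparison above and so is not independent of it. In limma, 0 of 93 family probes had an adjusted p under 0.05 (0.00% of all named probes), with a lowest value of 0.993 on raw and 0.865 on net intensity. At an unadjusted p under 0.05 there were 2 (2.15%), against 3.37% of all named probes. None of these was higher (0.847% of all named probes) and both were lower (2.53% of all named probes). The methods' t-test gave 3 (3.23%), against 3.19% of all named probes. On net intensity there were 9 (9.68%), against 5.23% of all named probes, 2 of them higher (2.11% of all named probes) and 7 lower (3.12% of all named probes). The 2 on raw intensity were MMP10 by PH_hs_0000305 (-0.17, standard error 0.058) and ADAMTS13 by PH_hs_0007794 (-0.13, standard error 0.057). MMP19 (-0.16) was the next lower probe, and ADAMTS2 by PH_hs_0006647 (0.11), TIMP2 (0.14) and ADAM2 (0.17) were the higher probes of lowest p, of which ADAM2 alone passed the empty spots on any array. Without 20 µM replicate 1 the differences were 0.034 for TIMP2, 0.058 for ADAM2, -0.085 for ADAMTS13 and -0.088 for MMP19. On replicate 1 TIMP2 had a raw intensity of 12210 at 20 µM and 9304 at 10 µM, and net intensities of 1386 and 817. ADAM2 differed by 0.30 without 20 µM replicate 2, and without 20 µM replicate 3 the differences were 0.22 for TIMP2 and 0.068 for ADAMTS2.

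For MMP10, the net differences of 20 µM minus 10 µM were -0.45 (standard error 0.11) and -0.32 (standard error 0.20), and under cyclic loess both raw differences were near 0 (-0.0047 and -0.018). Within batches the first MMP10 probe differed by -0.49, -0.35 and -0.50 on net intensity and the second by -0.64, -0.45 and 0.11. Other bright probes were mostly lower too. Over the 799 named probes above the empty spots on every array, the median difference was -0.13 on raw and -0.17 on net intensity. Of these, 86.6% and 83.6% were lower at 20 µM. On net intensity 13.5% were as low as or lower than the first MMP10 probe and 25.2% than the second. On raw intensity 37.3% and 46.3% were. The part of this general shift in these MMP10 values was not tested. For MMP16 by PH_hs_0044314 the scales differed, with a raw difference of 0.014 and a net difference of -0.56 (standard error 0.14). With an array left out its raw difference was -0.013 to 0.039. Among members without overlap on raw intensity, 5 lay wholly above 10 µM (2.86% of all named probes) and 6 below (5.10% of all named probes). On net intensity there were 3 above (4.58% of all named probes) and 11 below (5.74% of all named probes).

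Other genes of proteolysis at the cell surface, a list of 56 partners such as activators, inhibitors and cathepsins, were read in the same way. On the array were 55 of them with 74 probes. A probe of HPN (the membrane serine protease hepsin), CTSD (the lysosomal protease cathepsin D) and FURIN (the convertase that activates MMP14) passed the empty spots on all 9 arrays, and 40 genes had no passing probe. In limma on raw intensity, 0 of the 74 probes had an adjusted p under 0.05 in any comparison. At an unadjusted p under 0.05 there were 0 higher and 1 lower at 10 µM against control (0.276% and 0.504% of all named probes), 0 higher and 2 lower at 20 µM against control (0.418% and 1.92%), and 1 higher and 2 lower at 20 µM against 10 µM (0.847% and 2.53%). On net intensity the counts were 0 higher and 1 lower at 10 µM against control (1.69% and 1.79% of all named probes), 3 higher and 2 lower at 20 µM against control (2.09% and 3.15%), and 2 higher and 1 lower at 20 µM against 10 µM (2.11% and 3.12%). At 20 µM against control, CTSD differed by -0.27 on raw and -0.24 on net intensity. FURIN differed by -0.12 on raw and -0.16 on net intensity and HPN by -0.20 and -0.24. For CTSD, FURIN and HPN the unadjusted p in limma was 0.012, 0.17 and 0.089 on raw and 0.18, 0.34 and 0.26 on net intensity. The 799 named probes above the empty spots on all 9 arrays had median differences of -0.16 on raw and -0.17 on net intensity. Of these probes, 88.9% and 82.7% were lower at 20 µM. The part of this general shift in the values of the 3 genes was not tested.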

How the data were processed

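The scanner files deposited by the authors list for every spot its raw intensity, the intensity of the surrounding background and their difference, the net intensity. A table of processed values, deposited by the authors and treated here as a score, has array medians near 0 and an unstated scale and centring, and was used as an alternative only. The study's methods name the Phalanx Human OneArray, Cy3 labelling, log2 transformation, median and quantile normalization, and an equal-variance test.

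Here log2 raw intensities were centred on each array's median and quantile-normalized over 29187 gene probes, each with 1 spot per array. Differences were fitted with limma 3.58.1 (R 4.3.3) in a single model of the 3 groups, with Benjamini-Hochberg adjustment over 25378 named probes. The limma fit was tested on simulated data, with an outcome that is not reported here. Figures used matplotlib 3.10.9.

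Members came from the names in the array files, of which 92 of the 93 probes carried a current RefSeq symbol and ADAM5P an older one. Members were named in the text if above the empty spots on 6 or more arrays, if among the 3 higher and 3 lower of lowest p in a comparison, if on a list of 20 well-known members, or if covered by 2 or more probes. The members and lists were chosen with earlier results of these data known.

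A code in the array headers was taken to mark 3 batches, each holding 1 array of every group and all of 1 replicate number. What the code stands for was not checked. On raw intensity, same-numbered 10 µM and control arrays deviated together from their group means (r of 0.137 to 0.225). On this scale the numbers were taken to pair these arrays by batch, but r was only 0.00926 to 0.0866 on net intensity. On raw intensity r was -0.331 to -0.230 for 20 µM and control, against 0.0872 to 0.213 for arrays of different numbers. For 20 µM and 10 µM it was -0.110 to -0.0738, against -0.00108 to 0.0950. Same-numbered arrays thus tended to deviate in opposite directions there, and the cause was not tested. For 10 µM against control, fitting those 6 arrays alone called 4 family probes at an unadjusted p under 0.05 when the replicate block was included (2.10% of all named probes) and 2 when it was not (1.20%), and fitting all 9 arrays called 3 with the block (0.512%) and 3 without it (0.780%).

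Alternatives were normexp background correction with an offset of 50, net intensity, median centring alone, cyclic loess, the authors' table, a filter for probes above the empty spots on 3 or more arrays, the 6 arrays of a comparison alone, the replicate block, the methods' t-test, other detection bounds and leaving out each array in turn. The detection count with each array left out was added after the data were seen. The p-values rest on the spread between arrays, which the study calls biological replicates. With 3 arrays a group, no exact permutation p can be below 0.1, so none was computed for single members. The number of arrays limits the precision.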

Additional observations from a re-analysis of the deposited data

How the results depend on the processing

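In limma the count of family probes at an adjusted p under 0.05 was 0 in each of the 3 comparisons under every alternative run. At an unadjusted p under 0.05 the counts varied, and so did the share of all named probes, given in parentheses after each count (1 of the 93 family probes is 1.08%). For 10 µM against control, 3 probes (0.780%), there was 1 with normexp correction (4.08%) and 1 with the authors' table (3.63%), and 1 to 7 with an array left out, 1 without control replicate 2 (0.437%) and 7 without control replicate 3 (2.69%). For 20 µM against control, 5 probes (2.34%), there were 8 on net intensity (5.24%), 3 with cyclic loess (1.34%), 3 among probes above the empty spots on 3 or more arrays (11.6% of the 2467 such named probes), 3 in the 6 arrays alone (1.90%), 1 with median centring alone (2.30%), 1 with the replicate block in 6 arrays alone (1.31%) and 0 with the methods' t-test (2.06%), and 1 to 11 with an array left out, 2 without control replicate 1 (1.32%), 1 without 20 µM replicate 1 (1.75%) and 11 without 20 µM replicate 3 (5.49%). For 20 µM against 10 µM, 2 probes (3.37%), there were 9 on net intensity (5.23%), 8 with the authors' table (5.32%), 6 with normexp correction (5.39%), 1 with median centring alone (2.90%), 0 with cyclic loess (2.53%), 1 among probes above the empty spots on 3 or more arrays (9.65% of the 2467) and 1 with the replicate block in all 9 arrays (2.70%) or in 6 alone (2.39%), and 1 to 9 with an array left out, 1 without control replicate 2 (2.99%), 4 without 10 µM replicate 3 (3.70%), 5 without 20 µM replicate 2 (5.47%) and 9 without 20 µM replicate 3 (6.44%). The count of 7 probes above the empty spots on all 9 arrays was 12 when mean values were compared, and 7 with any 1 array left out.

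MMP10 by PH_hs_0000305 was -0.011 at 10 µM with median centring alone (-0.00021 to 0.054 with an array left out) and 0.035 at 20 µM with cyclic loess. MMP14 at 10 µM (0.036) was -0.13 with median centring alone, -0.094 in the authors' table and -0.16 to 0.16 with an array left out, and for 20 µM minus 10 µM (-0.098) it was -0.23 to 0.099 with an array left out. ADAM23 at 20 µM (0.088) was -0.00062 with median centring alone, -0.15 in the authors' table and -0.018 to 0.17 with an array left out. MMP16 by PH_hs_0044314 at 10 µM (-0.17) was 0.045 with normexp correction, 0.025 on net intensity and 0.059 in the authors' table, and for 20 µM minus 10 µM (0.014) it was -1.44 with normexp correction, -0.56 on net intensity, -0.013 with cyclic loess, -1.93 in the authors' table and -0.013 to 0.039 with an array left out. The authors' table is in its own units. The causes were not tested, and low signal over background limits all members that did not pass the empty spots.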

Other observations

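MMP15, a membrane-type MMP, had a net intensity of 7404 on 20 µM replicate 2, against 749 to 1064 on the other 8 arrays. It was chosen after its values were seen.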
